A study of Schizosaccharomyces pombe with 6 samples.

Results

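The wild-type (WT) map of newly made histone H3 in fission yeast, Schizosaccharomyces pombe, was read from the 3 arrays titled as FLAG ChIP of H3 in WT cells, out of 6 arrays in the series. The 3 arrays of mutant strains were not analysed here. The profile was followed over the 1 long tiled stretch of chromosome II, of 2049810 bases, which holds 40975 of the 43993 probes of each array. Probes were 60 bases long at steps of 50 bases.

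All 3 WT samples carried a plasmid, pINV1-H3.2-FLAG, from which FLAG-tagged H3 is made under the invertase promoter. Per the labels, they grew in EMM-Leu medium with 8% glucose, received 15 mM hydroxyurea for 4 h, and were then held for 2 h in 4% sucrose with the drug, which switched the tagged histone on. Fixation was with 1% formaldehyde for 20 min, and DNA was sheared to 400 to 600 bp. DNA recovered through the tag was labelled with Cy5 and DNA of the whole-cell extract with Cy3 on every array. The native histone genes were present beside the plasmid, and the labels do not say whether the 3 samples were separate cultures. Each WT array was on a slide of its own, so slide and array cannot be told apart. Every p-value below rests on the scatter of these 3 samples alone, and that scatter may be technical.

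As background, most histone H3 is deposited behind the replication fork, and hydroxyurea starves cells of deoxynucleotides and holds them in early S phase. Tagged H3 made during such a block enters chromatin mainly where old nucleosomes are evicted and replaced, as happens at transcribed genes and at regulatory DNA. The histone chaperones that act outside replication, among them the HIR complex and Asf1 (Cia1 in fission yeast), carry out much of this exchange. A ChIP of the tag over extract DNA therefore follows mainly nucleosome turnover, but it also falls where a region holds few nucleosomes of any age. Total H3 was not measured, so slow exchange and few nucleosomes cannot be told apart. Replication was not measured either, so H3 deposited at forks and H3 placed by exchange cannot be told apart. A mean over a culture also cannot separate a low level in all cells from a high level in some.

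Values are log2 of Cy5 over Cy3, centred on the median probe of each array. A value of 0 is thus the median probe, and a positive value means more tagged H3 per extract DNA than at that probe. Over the stretch the ratio correlated between arrays with r = 0.861 for arrays 1 and 2, 0.862 for 1 and 3, and 0.835 for 2 and 3 (40972 probes measured on all arrays). Outside the centromere these correlations were 0.811, 0.785 and 0.736. They are descriptions, since neighbouring probes share fragments and all arrays share probe sequences. The arrays differed in range: the SD over probes outside the centromere was 0.387, 0.333 and 0.276 on arrays 1, 2 and 3.

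The map had one deep trough and an otherwise shallow relief. The centromere 2 interval was defined as the longest stretch without a protein-coding gene (1597645 to 1650031, 1026 probes), and it averaged -1.26, -1.60 and -1.29 on arrays 1, 2 and 3. Its mean was -1.38 ± 0.19 (SD, n = 3), against 0.042 ± 0.010 for the 39949 probes outside it. Within the interval 99.4% of probes were below 0, and the lowest running mean over 5 probes was -3.94 at 1625740. Of its probes, 74.7% match several places in the genome, so their values are sums over copies. The relief outside the interval ran mostly between -0.5 and 0.5, and 7.24%, 5.68% and 3.54% of all probes of the stretch, the centromere included, were at or below -0.5 on arrays 1, 2 and 3.

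**Figure D1:**
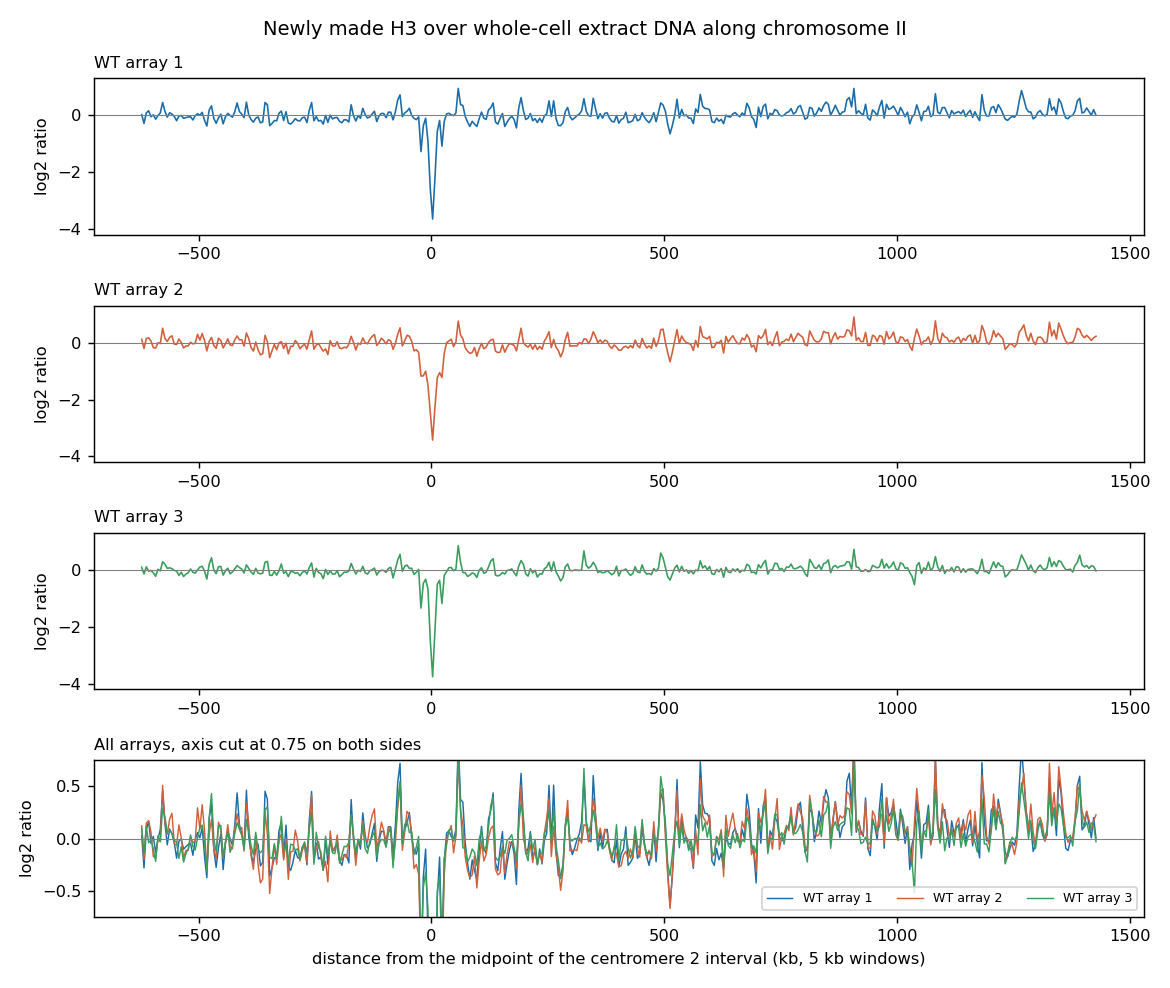
Mean log2 ratio of tagged H3 over extract DNA in windows of 5 kb (y) against distance from the midpoint of the centromere 2 interval in kb (x), for each WT array and, in the lowest panel, for all arrays with the y axis cut at 0.75. The middle of the centromere trough was deep on all 3 arrays, while its arms were lower on array 2 than on arrays 1 and 3. The small peaks outside the trough recurred at the same places.

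Over genes, the profile was tested with limma against 0, the array median. Of 920 genes with at least 2 probes, 278 (30.2% of those tested) were above the median and 168 (18.3%) were below it at an adjusted p under 0.05, 48.5% in all. The counts rested in part on single arrays: without array 1, 135 genes were above and 54 below, and without array 2, 105 were below. Of the 1000-base bins, 519 of 2049 (25.3%) were above and 429 (20.9%) below, 46.3% in all. Without array 1 these were 253 and 183 bins, and without array 2 the number below was 237. With a minimum distance of 0.25 from the median, 35 genes were above and 21 below. Of the genes named here, 22 also lost their call under that minimum, so its count does not give the size of the other effects.

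The gene with the highest ratio was hht2, which encodes histone H3 itself (h3.2). It read 1.59, 1.74 and 1.19 on arrays 1, 2 and 3, a mean of 1.51 ± 0.28 (SD, n = 3) or 2.84-fold over the array median (adjusted p = 0.00103). All 3 arrays were far above 0 there. The Cy5 of hht2 was 1.49, 1.62 and 1.51 above the array median on the log2 scale, while its Cy3 was -0.084, -0.13 and 0.31. The extract DNA at hht2 was thus slightly below the array median on arrays 1 and 2 and above it on array 3, and the plasmid carries a further H3 gene. What share of the Cy5 at hht2 came from plasmid DNA was not tested.

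The hht2 gene shares its promoter with hhf2, for histone H4, which read 0.75, 0.59 and 0.38, a mean of 0.58 ± 0.19 (SD, n = 3, adjusted p = 0.00428). The ratio was lower over the H4 gene than over the H3 gene on each array. The remaining histone gene of the stretch, pht1, for the variant H2A.Z, was below the median, with -0.34, -0.16 and -0.35 (-0.28 ± 0.11, adjusted p = 0.0112). The DNA between their annotated starts is shown because it lies within the peak that covers both genes. It is read toward hht2 and taken from RefSeq (build ASM294v3, chrII:1364985-1365118, in that build's own numbering). Capitals mark the AACCCT box, an element known from fission yeast histone promoters, here on the opposite strand and in tandem.
hht2 upstream DNA: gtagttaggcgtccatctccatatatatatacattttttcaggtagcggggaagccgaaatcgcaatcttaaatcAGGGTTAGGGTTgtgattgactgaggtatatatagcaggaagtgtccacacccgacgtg
The promoter window of hht2 read 0.72, 0.69 and 0.39 on arrays 1, 2 and 3, below the gene itself on all of them.

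After hht2, the highest protein-coding genes lay close together. The polyubiquitin gene ubi4 averaged 0.95 ± 0.33 (SD, n = 3), but 74.1% of its probes match several places. The Golgi protein gene grp2 averaged 0.95 ± 0.34 and the nuclear envelope gene ish1, which overlaps it, 0.87 ± 0.38. On these 3 genes array 1 was highest and array 3 lowest. The spread was small at SPBC365.16, of unknown function, with 0.88, 0.79 and 0.85 on the 3 arrays (0.84 ± 0.046, adjusted p = 9.36e-04). It was also small at SPBC23G7.10C, annotated as a flavin oxidoreductase (0.77 ± 0.082), and at rcr1 (0.76 ± 0.080). The genes gem7, rbd3, for a mitochondrial rhomboid peptidase, and tsp0 completed the 10 highest, with means of 0.77 ± 0.37, 0.75 ± 0.41 and 0.74 ± 0.30. Apart from hht2, whose mean exceeded the next by more than its SD, most neighbours in this order differed by less than their SD.

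The lowest protein-coding genes were shallower. SPBC32H8.15 read -1.10, -0.22 and -0.95 on arrays 1, 2 and 3 (-0.76 ± 0.47, SD, n = 3, adjusted p = 0.0174), from only 6 probes, with array 2 apart. Without array 1 its adjusted p was 0.0785, and without array 3 it was 0.0539. The other 9 ranged from -0.50 at smd3, for a core protein of spliceosomal particles, to -0.38 at kap109, for a nuclear export receptor. Among them, ctu2, for a tRNA thiolation enzyme, read -0.38, -0.49 and -0.46, and skp1, for a core subunit of SCF ubiquitin ligases, read -0.56, -0.45 and -0.41. The ribosome biogenesis gene llp1 averaged -0.42 ± 0.059, the AP-3 adaptor gene apm3 -0.48 ± 0.21, and nse5, of the Smc5-6 complex, -0.44 ± 0.24, a call that was lost without array 1 (adjusted p = 0.0791). The remaining 2 were phs1 at -0.42 ± 0.16 and the uncharacterized SPBC83.19C at -0.46 ± 0.14. The neighbours ctu2, smd3 and phs1 lie within 1702551 to 1705583, so their values share part of a single low stretch, as do nse5 and apm3.

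**Figure D2:**
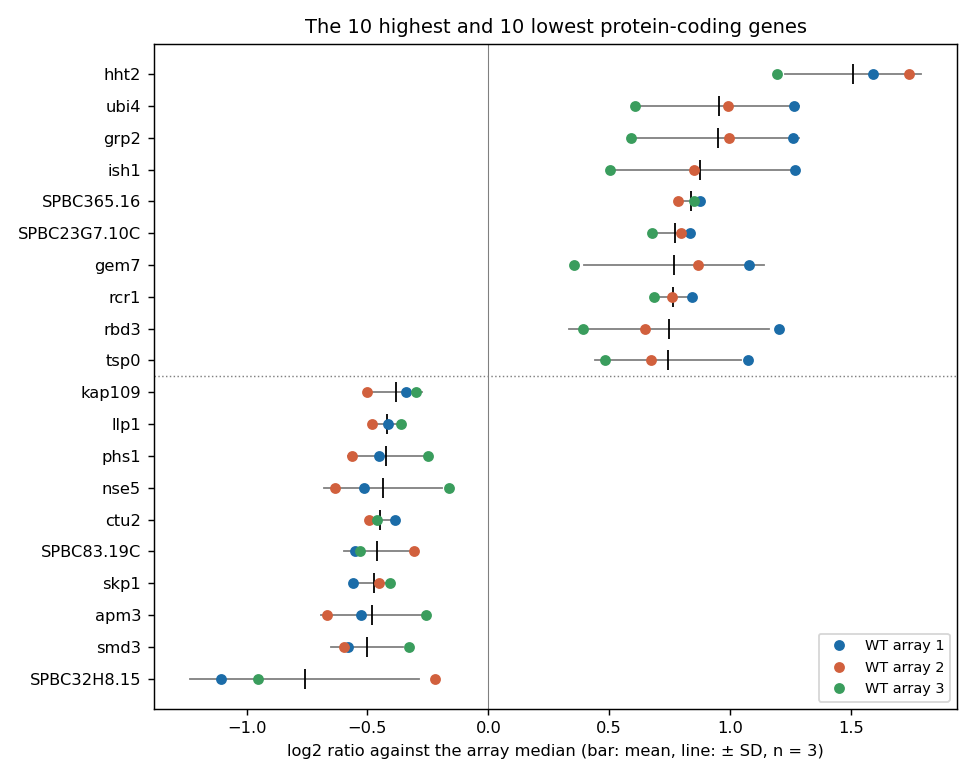
Log2 ratio against the array median (x) for the 10 highest and the 10 lowest protein-coding genes among those past the threshold (y), with 1 point per WT array, a bar at the mean and a line of ± 1 SD (n = 3). The gene hht2 lay above all other genes on each array, and most of the 10 highest were highest on array 1.

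Gene lists differed in level, and the shares are read against 30.2% above and 18.3% below over all genes. All 24 measured tRNA genes were below the median, with a median of -0.94 against 0.041 over all genes. They included 17 genes in the centromere 2 interval, where probes are repeated. The 7 measured outside it were also all below, from -0.70 to -0.27, with means of -0.67, -0.35 and -0.60 on arrays 1, 2 and 3. The tRNA-Leu genes SPBTRNALEU.07 and SPBTRNALEU.06 at the centromere were the lowest genes of any kind, at -2.11 ± 0.37 and -1.83 ± 0.42 (SD, n = 3).

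Protein-coding lists stayed closer to the median. Of 25 ribosomal protein genes, 8 were above and 4 below, a share near that of all genes, with a median of 0.043. The extremes were rps001 at 0.41 ± 0.15 and rps2501 at -0.36 ± 0.23, whose call was lost without array 1 (adjusted p = 0.0976). Of 9 mitochondrial ribosomal protein genes 2 were above and 2 below. Those below were mrpl35 at -0.34 ± 0.092 and mrpl51 at -0.28 ± 0.068. Of 12 meiotically upregulated genes, which are mostly silent in growing cells, 6 were above and 2 below, with a median of 0.13. The range ran from mug124 at 0.44 ± 0.20 to mug100 at -0.23 ± 0.13, whose call was lost without array 1 (adjusted p = 0.106).

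Small lists gave few calls. Of 3 histone chaperone genes 2 were above the median: pcf1, of the CAF-1 complex that works at forks, at 0.20 ± 0.048, and slm9, of the HIR complex, at 0.14 ± 0.023 (adjusted p = 0.0143 and 0.0325). Leaving out any one array ended the call of slm9, and leaving out array 1 that of pcf1. Of 4 genes of MBF targets and S phase, 1 was called, the replication licensing gene cdc18 at 0.72, 0.44 and 0.32 (0.50 ± 0.21, adjusted p = 0.00739), a gene induced in S phase. The MBF corepressor gene yox1, next to the centromere, read -0.044, -0.31 and -0.11. Of 3 chaperone genes of protein folding 1 was called, mas5, a DnaJ-type gene, at 0.29 ± 0.20, a call that was lost without array 1 or array 2 (adjusted p = 0.128 and 0.0567). Of 4 nuclear pore and rim genes 1 was called, amo1, for a nuclear rim protein, at 0.16 ± 0.048, and leaving out any one array ended that call. Both heterochromatin factor genes were uncalled, with a list median of -0.015. None of the glucose-repressed genes listed lies in the stretch.

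The glycolytic and stress lists were above the median on average but differed between arrays. The 4 glycolytic genes averaged 0.45, 0.34 and -0.042 on arrays 1, 2 and 3, and the 5 stress genes 0.71, 0.68 and 0.048. Array 3 was thus the low one for both lists. Of the glycolytic genes 2 were above and of the stress genes 3, and in neither list was a gene below. The call of tdh1 was lost without array 1 or array 2 (adjusted p = 0.135 and 0.0929). The median SD of a gene over arrays was 0.27 in the first list and 0.33 in the second, against 0.076 over all genes.

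Peaks were defined on the mean of the 3 arrays as runs of at least 5 probes with a running mean over 5 probes at or above 0.5. There were 107 peaks with a median width of 910 bases (260 to 6110), which together covered 6.71% of probes. All 3 arrays were at or above 0.5 in 41 of them, and all 3 were positive in 106. Peak summits were a median of 11375 bases apart. Of the 107 summits 83 lay in protein-coding genes and 24 between genes, and 74 lay downstream of the nearest gene start. These shares follow the layout of the stretch, in which protein-coding genes are dense. Per probe, 11.7% of probes between divergent genes and 10.5% of those between tandem genes fell in peaks, against 6.75% in gene interiors. Between convergent genes it was 7.28%. The tandem share includes probes of a run beside mat3-Mi that has no measured level, as described below.

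Whether a peak held on an array that did not choose it was checked by calling peaks on 2 arrays and reading the other. On array 1, 93 of 93 such peaks were positive, with a mean of 0.83. On array 2 it was 110 of 111 with a mean of 0.60, and on array 3 it was 123 of 127 with a mean of 0.47. On the arrays that chose them the means were 0.65, 0.69 and 0.70. The sign thus held on each array left out, while the height was larger on array 1, and smaller on arrays 2 and 3, than on the arrays that chose the peaks. Of valleys, 52 of 52, 82 of 84 and 96 of 96 were negative on arrays 1, 2 and 3 when those were left out.

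**Figure D3:**
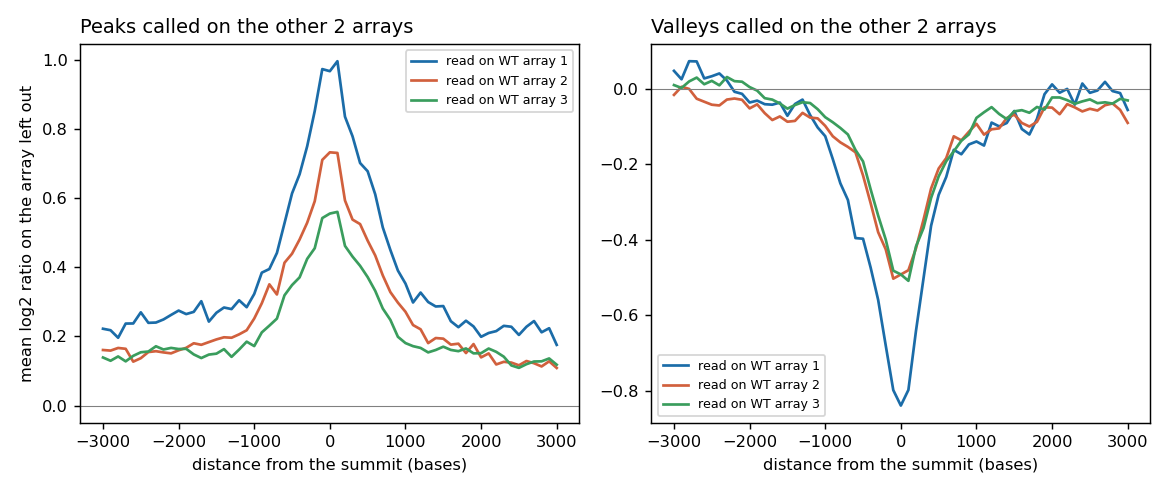
Mean log2 ratio on the array left out (y) around the summits of peaks (left) and valleys (right) that were called on the other arrays (x, distance from the summit in bases), with 1 line per array left out. Peaks and valleys kept their sign on each array left out, and were largest in size on array 1.

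The highest peak covered hhf2 and hht2 (1364911 to 1366720), with its summit of 2.09 inside the first 300 bases of hht2. A peak upstream of tdh1, for glyceraldehyde-3-phosphate dehydrogenase, had its summit at 1404 bases before the gene start and read 1.28, 1.18 and 0.74 on arrays 1, 2 and 3 (2806561 to 2808720). Long intergenic DNA held others: 1.08, 0.84 and 0.97 between ubp11 and pat1, the kinase that holds back meiosis (1681311 to 1684220), and 0.95, 0.79 and 0.82 between cup1 and eno101, for enolase (2198311 to 2201720). The widest peak, of 6110 bases, covered most of SPBC365.16 and DNA beside it (2527611 to 2533720) and read 0.93, 0.86 and 0.66. Arrays agreed closely at the peak over the start of SPBC12C2.03C, a methionine synthase reductase gene, with 0.83, 0.82 and 0.82. They did so too at map4, for a mating agglutinin, whose gene body read 0.69, 0.72 and 0.74.

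Among the 10 highest runs, 2 lie in the mating-type region and differ in standing. The run from 2117211 to 2118870, beside mat1-Mc, kept 30 of 33 probes well above background on all arrays, and over those it read 1.23, 1.25 and 1.41. In the run from 2133161 to 2134220, beside mat3-Mi, 0 of 21 probes were well above background on all arrays. That run has no measured level, and its height says nothing of H3. With only probes well above background, 106 peaks and 73 valleys were called.

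Valleys, runs at or below -0.5, numbered 70, of which 61 lay outside the centromere 2 interval. With loess within arrays 33 valleys were called. Those 61 were narrow, with a median width of 560 bases, and covered 1.95% of the stretch's probes. All 3 arrays were at or below -0.5 in 21 of the 61, and all 3 were negative in all 61. Their place differed from that of peaks: 45 of the 61 valley bottoms lay between protein-coding genes, and 31 of these between divergent genes. Per probe, 7.69% of divergent, 7.49% of tandem and 6.03% of convergent intergenic probes fell in valleys, against 0.301% of gene interiors. Per probe, divergent and tandem intergenic DNA thus held more of both peaks and valleys than gene interiors did. Convergent DNA held more of valleys, while its share in peaks was near that of gene interiors. Against peaks the valleys were AT-rich, with a median GC content of 30.5% against 38.1%. Their extract DNA was also dimmer than in peaks, with a median log2 Cy3 of -1.01 against 0.25. Intergenic DNA in general was close to the valleys in both. GC content averaged 31.4% over 548 intergenic regions. Mean log2 Cy3 was -0.88, -0.83 and -0.81 over divergent, tandem and convergent intergenic probes. The contrast with peaks is thus largely one that intergenic DNA shares. With each array's trend on probe GC removed, 63 valleys and 110 peaks were called over the whole stretch, the centromere included. What further part base composition had in the valleys was not tested.

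Valleys outside the centromere were frequent at tRNA genes. Of 14 annotated tRNA genes there, 9 had a valley within 300 bases and 0 had a peak. Of 875 protein-coding genes, 71 (8.11%) had a valley within that distance and 117 had a peak. Of 16 snoRNA genes 0 had a valley. By the lowest running mean, the deepest valleys outside the centromere flanked the silent mating-type cassette mat3 (2130811 to 2133070 and 2135561 to 2139720), with means over the valley of -0.79 ± 0.22 and -0.90 ± 0.27 (SD, n = 3). Of their probes 88.9% and 48.2% match several places, so these values are in part sums over copies.

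Before protein-coding genes, a valley upstream of sui1, for translation initiation factor eIF1, read -1.24, -0.80 and -0.42 on arrays 1, 2 and 3 (2106361 to 2107370). It lay in DNA of 26.6% GC with dim extract DNA. The valley between SPBP23A10.11C and frg1 read -0.92, -0.71 and -0.72, and the one between skp1 and uch2 -0.91, -0.63 and -0.52. All arrays were on the same side of 0 in each of these. The valley between yea4 and mas5 read -1.02, -0.29 and -0.96, with array 2 apart.

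Local maxima of the running mean, with a prominence of at least 0.2, were counted to describe spacing. There were 621, a median of 2950 bases apart (quartiles 2100 and 4125). On single arrays the median was 2350, 2700 and 3050 bases, and the shortest distance was 300 bases. Starts of protein-coding genes were a median of 2065 bases apart. The spacing was thus on the scale of genes and not of single nucleosomes, which fragments of 400 to 600 bp cannot separate. With a prominence of at least 0.4 the median was 5200 bases. The similarity of probes to their neighbours declined with distance. Outside the centromere the correlation between probes was 0.908 at 50 bases, 0.675 at 500 bases, 0.435 at 1000 bases and 0.151 at 5000 bases on average over arrays. The average had no second maximum among the distances examined, although on arrays 2 and 3 the value at 100 bases was slightly above that at 50 bases.

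Promoters lay below gene bodies on average, by an amount that differed between arrays. The promoter was the 300 bases before the annotated start and the body the gene without its first 300 bases. Promoter windows, and the windows after gene ends used below, were not cut where they reached a neighbouring gene. Over 840 genes promoters averaged -0.14, 0.020 and -0.038 on arrays 1, 2 and 3, and bodies 0.11, 0.068 and 0.056. The difference was -0.24, -0.048 and -0.094, a mean of -0.13 ± 0.10 (SD, n = 3), so the spread between arrays was nearly as large as the mean. The promoter was lower in 79.6%, 59.5% and 64.8% of genes on arrays 1, 2 and 3. In limma, 264 genes (31.4%) had a lower and 54 (6.43%) a higher promoter at an adjusted p under 0.05, 37.9% in all. Without array 1 the number lower was 159, and without array 2 or array 3 the number higher was 14 or 31. That fit gave every gene the same spread, so each gene's own SD did not enter its p.

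Base composition moved with this difference. GC content fell to 30.8% in the window 200 to 100 bases before the start, against 39.4% at 700 to 800 bases into the gene, and log2 Cy3 fell with it. With each array's trend on GC removed the mean difference was -0.076, and with loess within arrays, which removes a trend on brightness, it was -0.030. Without array 1 it was -0.071.

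**Figure D4:**
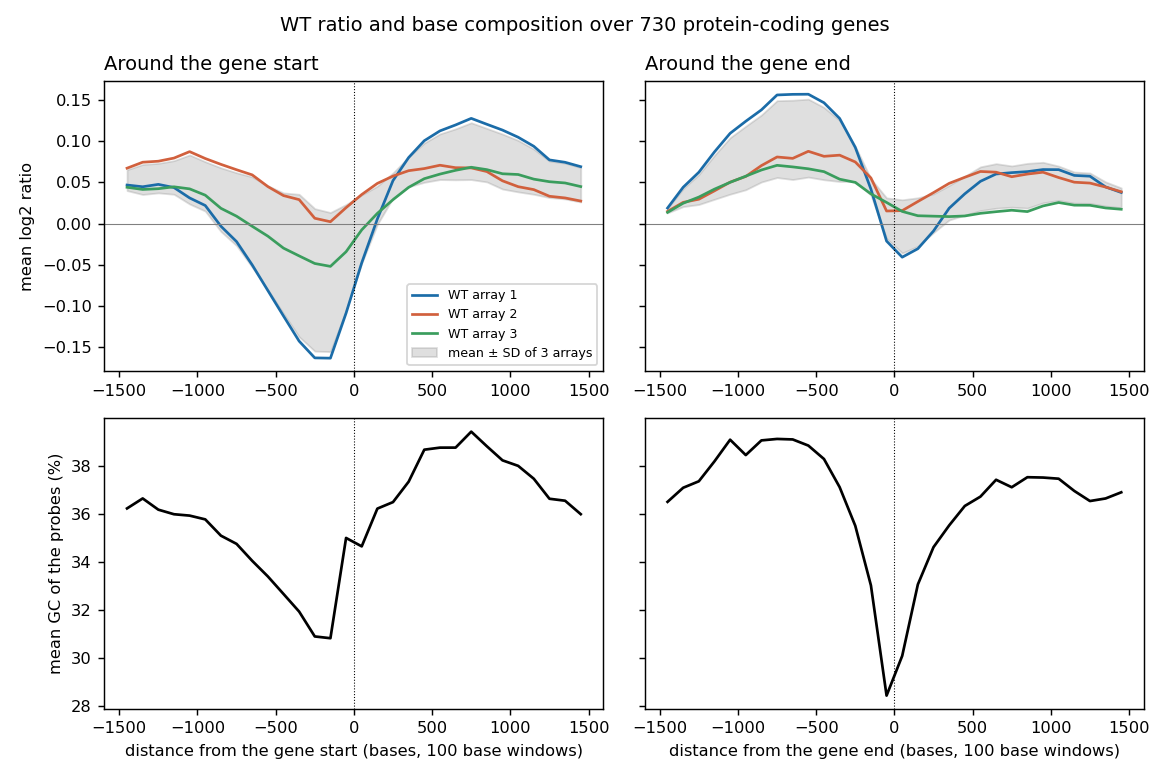
Mean log2 ratio (top, y) and mean GC content of the probes in percent (bottom, y) in 100-base windows around the start (left) and the end (right) of 730 protein-coding genes (x, distance in bases), with 1 line per WT array and grey for the mean ± SD (n = 3). The ratio dipped before the start, where GC content dipped, most on array 1, and at the end the dip was clear on array 1 and flat on array 3.

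The profile around starts was shallow. It reached -0.16, 0.0024 and -0.052 on arrays 1, 2 and 3 in the window 200 to 100 bases before the start. It reached 0.13, 0.068 and 0.068 in the window 700 to 800 bases into the gene. On array 2 it was as high upstream, with 0.087 in the window 1100 to 1000 bases before the start. The ends of genes showed a smaller dip. The 300 bases after the end minus the body gave -0.12, -0.030 and -0.036, a mean of -0.062 ± 0.051 (SD, n = 3) over 841 genes. Of these genes 217 (25.8%) were lower after the end and 92 (10.9%) higher, 36.7% in all. Without array 1 the mean was -0.033, and without array 2 the number higher was 51. With loess within arrays the mean was 0.0089, so the dip at ends turned with that setting.

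Single promoters departed much further than the average. At tdh1 the promoter read -0.87, -0.19 and -1.38 and the body 0.40, 0.55 and 0.15 on arrays 1, 2 and 3, a difference of -1.18 ± 0.40 (SD, n = 3). The promoter was below the body on each array, though by an amount that varied. At sul1, for a sulfate transporter, the difference was -1.03 ± 0.37, at lcf1, for a long-chain fatty acid CoA ligase, -0.89 ± 0.25, at sui1 -0.82 ± 0.46 and at wsc1, a cell wall stress sensor, -0.76 ± 0.21. These 5 were the lowest of the differences that passed.

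The upstream DNA of tdh1 and lcf1 is printed because their valleys sit on it. The tdh1 valley had 49.3% GC and read -0.88, -0.13 and -1.39 on arrays 1, 2 and 3. Its log2 Cy3 was -1.17, 0.030 and -2.63, so the extract DNA also differed between arrays there. The lcf1 valley had 34.3% GC, against 36.1% over all probes. Each printed run is the 250 bases before the annotated start, read toward the gene, from RefSeq (ASM294v3). Capitals mark TATAAA and, in tdh1, also AACCCT. The tdh1 run (chrII:2807345-2807594) has 51.2% GC and the lcf1 run (chrII:1769744-1769993) 39.6%.
tdh1 upstream DNA: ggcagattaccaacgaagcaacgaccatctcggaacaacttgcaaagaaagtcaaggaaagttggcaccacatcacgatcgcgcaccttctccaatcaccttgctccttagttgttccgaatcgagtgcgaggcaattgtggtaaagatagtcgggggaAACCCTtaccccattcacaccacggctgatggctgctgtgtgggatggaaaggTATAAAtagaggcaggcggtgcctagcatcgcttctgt
lcf1 upstream DNA: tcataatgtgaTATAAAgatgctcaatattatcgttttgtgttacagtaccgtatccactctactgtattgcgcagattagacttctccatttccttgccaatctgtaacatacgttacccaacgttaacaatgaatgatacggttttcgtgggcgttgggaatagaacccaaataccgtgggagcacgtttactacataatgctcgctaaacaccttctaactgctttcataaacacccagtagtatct
The lcf1 promoter read -0.76, -0.68 and -0.75, so its level hardly varied between arrays, unlike that of tdh1.

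A smaller set of genes had the opposite order. The promoter of SPBC17G9.12C, annotated as a hydrolase, read 0.60, 0.46 and 0.43 against -0.040, -0.26 and -0.19 in its body, a difference of 0.66 ± 0.051 (SD, n = 3). At lcf2, a second CoA ligase gene, promoter and body differed by 0.66 ± 0.091, with a promoter of 1.05, 1.12 and 0.74. At SPBC16E9.20 the difference was 0.62 ± 0.34, at cms1, for a subunit of preribosomes, 0.58 ± 0.20 and at hhf2 0.55 ± 0.16. The promoter of hhf2 reaches into the hht2 peak, and with a window of 150 bases its difference was 0.10 (adjusted p = 0.403). The 5 promoters were above their bodies on all 3 arrays.

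Short motifs were looked up in the 250 bases before the start of the same 840 genes, on both strands, as a description. TGACGT, the core of the cyclic AMP response element bound by Atf1, occurred in 4.88% of promoters, and these averaged 0.062, 0.18 and 0.025 on arrays 1, 2 and 3 against -0.15, 0.012 and -0.041 for the rest. Runs of at least 10 A or T occurred in 5.12%, with 0.054 ± 0.060 against -0.057 ± 0.080. TATAAA was in 42.9% (-0.049 ± 0.089 against -0.053 ± 0.072), AACCCT in 8.81% (-0.0039 ± 0.060 against -0.056 ± 0.081), and ACGCGT, the box of MBF, in 2.86% (-0.096 ± 0.081 against -0.050 ± 0.079). GAANNTTC, the core of heat shock elements, was in 9.76%, with -0.044 ± 0.068 against -0.052 ± 0.080. The difference from the rest was 0.15 ± 0.073 for TGACGT and 0.11 ± 0.034 for the runs (SD over arrays). It was 0.052 ± 0.045 for AACCCT and -0.046 ± 0.011 for ACGCGT, and for TATAAA and GAANNTTC it was smaller than its SD. All arrays share the same promoters, so these SDs do not measure the spread between promoters. Medians over promoters were 0.076 against -0.069 for TGACGT and 0.0040 against -0.069 for the runs. They lay closer together than the means for AACCCT (-0.055 against -0.064) and ACGCGT (-0.073 against -0.064).

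The longest intergenic regions had the highest ratios. The 33 regions of at least 2000 bases averaged 0.15, 0.20 and 0.12 on arrays 1, 2 and 3, against -0.12, 0.0047 and -0.024 for the 279 regions under 500 bases. The long regions were higher on each array. Their GC content was 34.2%, against 31.4% for the short ones. Over all 519 regions without small RNA genes the rank correlation of length and ratio was 0.047. Among divergent regions the mean was higher in each longer class. The divergent means were -0.17 ± 0.086 under 500 bases (53 regions), -0.12 ± 0.14 from 500 to under 1000 bases (68 regions), -0.018 ± 0.11 from 1000 to under 2000 bases (59 regions) and 0.096 ± 0.041 from 2000 bases (21 regions; SD, n = 3). On each array the divergent classes stood in this order. The other kinds did not follow it. Tandem regions averaged -0.032, -0.041, -0.075 and 0.21 in the same classes. Convergent regions averaged 0.044 under 500 bases and -0.034 and -0.47 in the next longer classes (44, 7 and 3 regions).

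Most of the map varied little between arrays. The SD over the 3 arrays of a 1000-base bin had a median of 0.092, and 75 of 2049 bins exceeded 0.3. Of these, 28 lay among the 51 bins of the centromere 2 interval, and 26 of the 28 had array 2 below the others. Within that interval, the arms on both sides of its lowest part read -0.49, -1.25 and -0.51 on the left (1604001 to 1620000) and -0.47, -1.22 and -0.50 on the right (1632001 to 1645000). Both channels of array 2 were lower there: on the left arm Cy5 was 1.64, 0.59 and 2.01 and Cy3 2.15, 1.82 and 2.52. Most probes of the interval match several places, so the arms are not separate evidence.

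Outside the centromere, the 47 bins over 0.3 merged into 30 loci. Of the 47 bins, array 3 was below the others in 22, array 1 was below in 7 and array 1 was above in 7. These counts include the mat3-Mi run, which has no measured level. The arrays also differed in range, and the SD of a bin rose with its absolute mean (rank correlation 0.30 outside the centromere). How much of these counts follows from the range of the arrays was not tested. By the mean of the locus, array 3 was below the others at 10 loci. At the 10 loci where array 3 was low, its Cy5 was the lowest of the 3 arrays at all 10 and its Cy3 at 8. Genes already named that lie at these loci are hsp16, eno101, tdh1, snoU14, mug124, fba1 and gem7, beside others not listed, and no theme was tested. The 10 loci where array 3 was low had a median GC content of 39.0%.

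The most variable gene was hsp16, for a small heat shock protein. It read 0.49, 1.03 and -1.18 on arrays 1, 2 and 3, a mean of 0.11 ± 1.15 (SD, n = 3, adjusted p = 0.823). The arrays did not share a sign. Its Cy5 was -1.21, -0.0034 and -4.35 and its Cy3 -1.68, -1.05 and -3.18, so the extract DNA at hsp16 also differed between arrays, and was lowest on array 3. Whether recovery of extract DNA or incorporation of H3 set the ratio on array 3 was not tested.

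The 250 bases before hsp16 are printed because its promoter also varied, in the same order as the gene, with -0.13, 0.62 and -1.23 (RefSeq, ASM294v3, chrII:2660993-2661242, minus strand). Capitals mark a match to GAANNTTC and TATAAA near the start.
hsp16 upstream DNA: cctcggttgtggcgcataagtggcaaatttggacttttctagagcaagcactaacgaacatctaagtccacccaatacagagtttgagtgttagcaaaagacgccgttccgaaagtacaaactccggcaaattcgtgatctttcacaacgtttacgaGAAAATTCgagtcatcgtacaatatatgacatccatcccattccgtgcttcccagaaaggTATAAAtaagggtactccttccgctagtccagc

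At 3 other genes array 3 was likewise the lowest, by a smaller amount, while array 1 and not array 2 was the highest. The enolase gene eno101 read 0.60, 0.38 and -0.34 (0.21 ± 0.49), with Cy3 of -1.56, -0.74 and -2.15. The aldolase gene fba1 read 0.56, 0.36 and -0.12, with Cy3 of -0.69, -0.47 and -1.26. The snoRNA gene snoU14 read 0.90, 0.69 and -0.11 from 3 probes. For these 3 genes and hsp16, array 3 was the lowest in ratio and in extract DNA. Without array 3 the means were 0.49 at eno101, 0.46 at fba1, 0.79 at snoU14 and 0.76 at hsp16. Each then passed the threshold in limma (adjusted p = 0.00794, 0.00796, 0.00259 and 0.0115). These genes are set together because array 3 was apart, so a pass without it is no support for a raised ratio. At hsp16 the mean was -0.072 without array 1 and -0.35 without array 2.

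A pair of further loci varied in other ways. At ish1 and grp2 the ratio was ordered 1.27, 0.85 and 0.50 over ish1, with little spread in Cy3 (-0.40, -0.25 and -0.26), so the arrays differed there in Cy5. At lsd90 array 2 was apart, with 0.55, -0.047 and 0.67. Without array 2 this gene passed the threshold in limma (mean 0.61, adjusted p = 4.22e-04). As the array left out was the one apart, that pass is no support for a raised ratio.

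**Figure D5:**
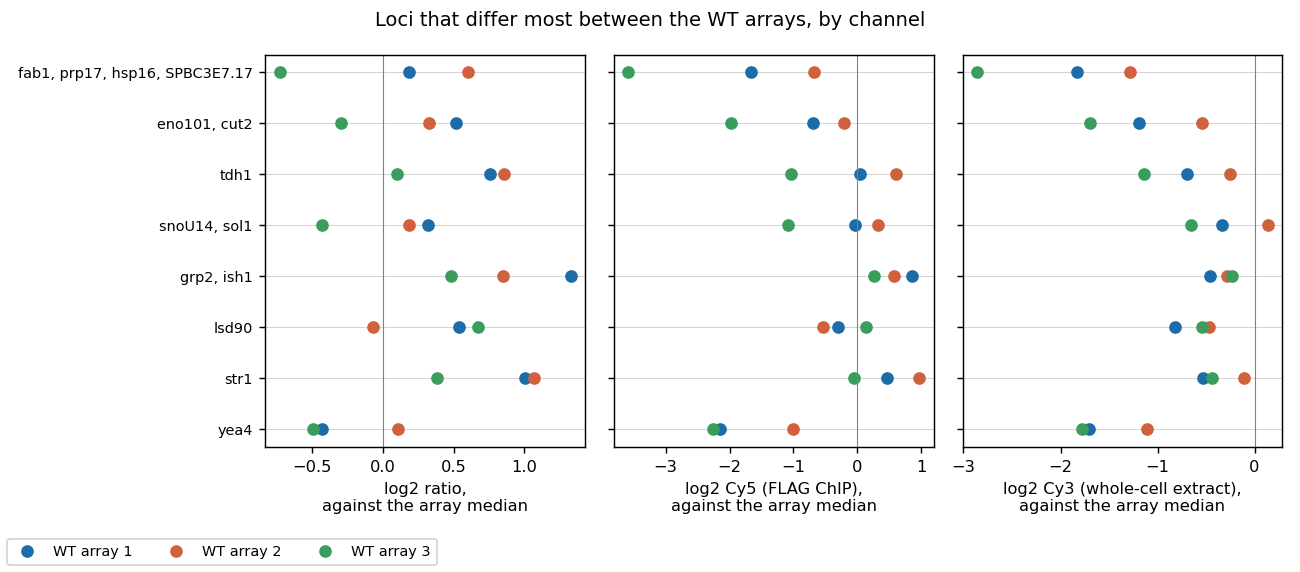
Log2 ratio, log2 Cy5 and log2 Cy3 against the array median (x, left to right) for the 8 loci with a gene outside the centromere and the mating-type region that differ most between the WT arrays (y, named by their genes), with 1 point per array. Array 3 was lowest in all 3 panels at the hsp16, eno101, tdh1 and snoU14 loci, while grp2 and ish1 differed mainly in Cy5.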

How the data were processed

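The authors scanned 2-colour Agilent arrays and quantified them with Agilent Feature Extraction 12.0.3.1, per the file headers. The deposited scanner files hold background-subtracted, dye-normalized signals as linear intensity values in both channels. The authors' deposited table holds a linear ratio, which equalled the quotient of the processed signals within a relative tolerance of 9.05e-09. Here log2 of that ratio was taken from the scanner files, 1227 control spots and 0 to 2 outlier spots per array were left out, and each array was centred on its median. A shift common to all probes cannot be seen. The median intensity of an array lay between 1057 and 1150 for Cy5 and between 1063 and 1145 for Cy3, no probe was saturated, and the number of arrays, 3, limits the precision.

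The array files name no genome build. Correlating probe GC content with Cy3 placed the array numbering ahead of the reference (ASM294v3). The offset was 900 bases before a hole at 1617471 to 1618510 and 1800 bases after it. Over both sides together, 23 of 23 windows lay within 15 bases of the offset of their side. Genes were moved to the array numbering, which all positions follow unless the build is named.

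Genes (at least 2 probes), bins of 1000 bases (at least 10 probes), promoters and gene ends were tested against 0 with limma 3.58.1 in R 4.3.3 over the 3 WT arrays, two-sided, with Benjamini-Hochberg adjustment at 0.05. The functions were tested on simulated data. Each array was left out in turn. Background correction, normalization, filters, offset, windows and thresholds were varied. Alternatives without the deposited background used median signals, since mean signals are not in the files used here.

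Named genes were hht2, the 10 highest and 10 lowest protein-coding genes, the 5 highest and 5 lowest promoter differences, the 10 with the largest SD, those at the 10 highest peaks and 10 deepest valleys, and up to 2 of each list. The members, lists and rules were chosen with earlier results of these data known.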

Additional observations from a re-analysis of the deposited data

How the results depend on the processing

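No paired analysis was possible because only WT was analysed, and no groups were compared. Leaving out each WT array in turn gave 135 to 239 genes and 253 to 468 bins above the median, and 54 to 118 genes and 183 to 333 bins below it. The same settings gave 14 to 45 higher and 159 to 216 lower promoters, and 51 to 105 higher gene ends. Bins with an SD over 0.5, 3 with all arrays, numbered 12 to 23 with an array left out, where an SD rests on 2 values. Limma's treat with a minimum of 0.25 left 35 genes above and 21 below. Bins of 500 bases gave 1012 above and 802 below, and bins of 2000 bases 272 and 221, in proportion to the number of bins. The residual on GC gave 88 higher promoters and, as an alternative chosen after seeing the data, 158 higher gene ends. Loess gave 119 higher promoters, 154 higher and 137 lower gene ends, a mean at gene ends of 0.0089, 33 valleys and 14 bins over 0.5. Normexp gave 201 peaks and 34 bins over 0.5, no background subtraction 5 such bins, and scaling 14. A threshold of 0.75 left 51 peaks and 22 valleys, and a prominence of 0.4 gave a spacing of 5200 bases. The cause of these differences was not tested.

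With no offset to the reference, windows lie off their genes: promoters were higher at 190 and lower at 146 genes, gene ends at 157 and 131, and the means were 0.026 and 0.012. Promoter differences then turned to -0.48 at SPBC17G9.12C, -0.049 at cms1, 0.031 at lcf1, -0.22 at lcf2, 0.44 at sui1, 0.32 at sul1 and 0.50 at tdh1, and gene means to 0.79 at SPBC32H8.15, -0.030 at gem7, 0.056 at mrpl51 and -0.25 at hsp16. The mean of hsp16 was -0.072 without array 1, -0.35 without array 2 and 0.76 without array 3. Of 817 pairs of a named value and an alternative, 736 kept direction and side of the threshold. Intensity near background limits the mating-type run without a level, and dim extract DNA limits AT-rich valleys.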

Other observations

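Runs of at least 5 probes with a log2 Cy3 under -3 against the array median on all 3 arrays numbered 13 in the stretch. In the run from 2133111 to 2134220, with 22 probes, 0, 0 and 1 probes were well above background on arrays 1, 2 and 3, so that DNA is near the detection limit in the WT extract. In the run from 2117211 to 2117470, 2 of 5 probes were above background on each array.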
